A study of Mus musculus with 2 samples.

Results

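The let-7 family, the 8 miRNAs mmu-let-7a, mmu-let-7b, mmu-let-7c, mmu-let-7d, mmu-let-7e, mmu-let-7f, mmu-let-7g and mmu-let-7i together with mmu-miR-98 (written below without mmu), was followed through all of its sequence forms (isomiRs) in mouse brain at 2 ages. Each of the 9 members was identified by the sequence tag whose read counts in both libraries equalled those that the study lists for its name, and every tag that began with the same 18 bases was then added. This gave 2724 of the 789591 distinct tags in the files, 1801 of them in the young library and 2279 in the old library. The tags came from small RNAs of whole brain, cut from gels at about the size of miRNAs, of adult male C57BL/6J mice with no treatment or allele named. There were 2 libraries in all, young (5 months) and old (24 to 25 months), each combined from the cDNA of 2 mice. With 1 library per age there was no replicate check and no test of age. Every interval and standard error (SE) below covers counting error only, reads without molecular identifiers are not independent molecules, and the spread between mice is unknown.

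let-7 miRNAs are cut from hairpin precursors, loaded into Argonaute proteins and pair with target mRNAs mainly through the seed, the bases near the 5′ end. They are known for promoting differentiation, accumulate as the brain matures, and are held back in stem cells by LIN28, which binds let-7 precursors and brings about their uridylation. The 3′ end of a mature miRNA is variable: it depends on where Drosha or Dicer cut, on trimming, and on terminal nucleotidyl transferases that add A or U without a template.

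The counted tags are shown because the members differ by few bases, which decides how far they can be told apart. Each is printed 5′ to 3′ as DNA (T for U), with the seed, bases 2 to 8, in capitals.
let-7a: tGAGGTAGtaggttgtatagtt
let-7b: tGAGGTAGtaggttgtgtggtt
let-7c: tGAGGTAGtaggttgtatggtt
let-7d: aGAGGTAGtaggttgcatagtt
let-7e: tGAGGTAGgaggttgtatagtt
let-7f: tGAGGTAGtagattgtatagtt
let-7g: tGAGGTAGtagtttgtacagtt
let-7i: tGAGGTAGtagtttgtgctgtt
miR-98: tGAGGTAGtaagttgtattgtt
All 9 tags were 22 nucleotides long and held the same seed. Counted from 1 at the 5′ end and with let-7a as reference, let-7c differed by A19G, let-7e by T9G and let-7f by G12A. let-7b differed by A17G and A19G, let-7d by T1A and T16C, let-7g by G12T and T18C, and miR-98 by G11A and A19T. let-7i was the most distant member, with G12T, A17G, T18C and A19T. let-7a and let-7c share the 18-base start and were told apart by base 19, and 2731 young and 6108 old reads too short or too altered at that base were left in neither.

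The precursors decide which 3′ bases are templated. The first 30 bases from the 5′ end of the mature miRNA are given as they stand in the RefSeq hairpins, which were placed on NCBIM37 (mm9), with the bases after position 22 in capitals.
Mir98: tgaggtagtaagttgtattgttGTGGGGTA
Mirlet7a-1: tgaggtagtaggttgtatagttTTAGGGTC
Mirlet7a-2: tgaggtagtaggttgtatagttTAGAGTTA
Mirlet7b: tgaggtagtaggttgtgtggttTCAGGGCA
Mirlet7c-1: tgaggtagtaggttgtatggttTAGAGTTA
Mirlet7c-2: tgaggtagtaggttgtatggttTTGGGCTC
Mirlet7d: agaggtagtaggttgcatagttTTAGGGCA
Mirlet7e: tgaggtaggaggttgtatagttGAGGAAGA
Mirlet7f-1: tgaggtagtagattgtatagttGTGGGGTA
Mirlet7f-2: tgaggtagtagattgtatagttTTAGGGTC
Mirlet7g: tgaggtagtagtttgtacagttTGAGGGTC
Mirlet7i: tgaggtagtagtttgtgctgttGGTCGGGT
A T at base 23 is therefore encoded for let-7a, b, c, d and g and for let-7f-2, and a G for let-7e, let-7i, miR-98 and let-7f-1. An A at base 23 is encoded by none of the 12 precursors.

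Each of the 12 hairpins had a single perfect match in the genome, and each counted tag matched only at its own precursors. Mirlet7a-1 (chr13:48633548-48633641), Mirlet7f-1 (chr13:48633198-48633286) and Mirlet7d (chr13:48631381-48631483) lie together on the minus strand and outside other annotated genes. Mirlet7f-2 (chrX:148346889-148346971) and Mir98 (chrX:148347757-148347864) lie on the plus strand in an intron of Huwe1, which encodes a ubiquitin ligase. Mirlet7c-2 (chr15:85537033-85537127) and Mirlet7b (chr15:85537749-85537833) are plus-strand intergenic neighbours, and Mirlet7g (chr9:106081171-106081258, plus strand) lies in an intron of Wdr82. Mirlet7a-2 (chr9:41344799-41344894, plus strand) lies in an intron of the lincRNA D230004N17Rik, and Mirlet7c-1 (chr16:77599902-77599995, plus strand) lies opposite an intron of Gm11146. Mirlet7e (chr17:17967316-17967408, plus strand) and Mirlet7i (chr10:122422696-122422780, minus strand) are intergenic. The tags of let-7a, let-7c and let-7f therefore each sum the products of 2 genes.

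The young library held 4523267 reads and the old library 6658732 reads, and levels are given as reads per 1000000 total reads (RPM), in which 1 read is worth 0.221 RPM in the young and 0.150 RPM in the old library. Tags with an undetermined base held 4.57% of young reads and 1.07% of old reads. Markers fixed for other cell types were counted in the same way. All 5 neuronal markers listed were detected, from 224 to 39418 RPM in the young and from 164 to 17001 RPM in the old library, led by miR-124 and lower in the old library throughout by total reads. The oligodendrocyte markers (147 to 1016 RPM over both libraries) and the 2 matched red blood cell markers (23.6 to 255 RPM) were also lower in the old library. The liver miRNA miR-122 stood at 196 and 123 RPM. Of the vessel markers, miR-126a-3p stood at 13.5 and 15.8 RPM and miR-143 at 5892 and 3234 RPM. Of the muscle markers, miR-206-3p stood at 1231 and 1195 RPM, whereas miR-1 stood at 6223 and 9672 RPM, and the part of such other tissue in the let-7 levels was not tested. By total reads only 20.2% of the 193 known miRNAs compared below were higher in the old library. Their median log2 ratio (old/young) was -0.59, so a lower level was not particular to these markers. In whole tissue, fewer cells of a type and less RNA per cell cannot be told apart.

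let-7 tags made up 1542729 reads of the young library and 3263797 reads of the old library. The family thus took 34.1% of the reads in the young library (95% interval by Wilson's method 34.1 to 34.2) and 49.0% in the old library (49.0 to 49.1). Its level was 341065 RPM in the young and 490153 RPM in the old library, a log2 ratio (old/young) of 0.52 (counting SE 0.00141). let-7g was the most abundant member at both ages, with 137204 RPM young and 167750 RPM old (log2 ratio 0.29). let-7c stood at 75059 and 115594 RPM (0.62). let-7f stood at 61894 and 130420 RPM, the largest ratio of the 9 members (1.08, 2.11-fold), and passed let-7c in the old library. let-7i was the only member with a lower level in the old library, 27226 RPM young and 20381 RPM old (-0.42).

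The less abundant members were also higher in the old library. let-7b stood at 15951 and 17297 RPM (log2 ratio 0.12) and let-7a at 13434 and 22437 RPM (0.74). let-7e stood at 5143 and 7596 RPM (0.56) and let-7d at 4463 and 7607 RPM (0.77). miR-98 was counted by only 396 young and 1015 old reads, 87.5 and 152 RPM, and its ratio of 0.80 had a counting SE of 0.0855. For the 8 let-7 members the counting SE of the log2 ratio ranged up to 0.0120. All levels here are RPM of tags of about the same length, and how well each member was ligated and amplified was not tested.

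**Figure D1:**
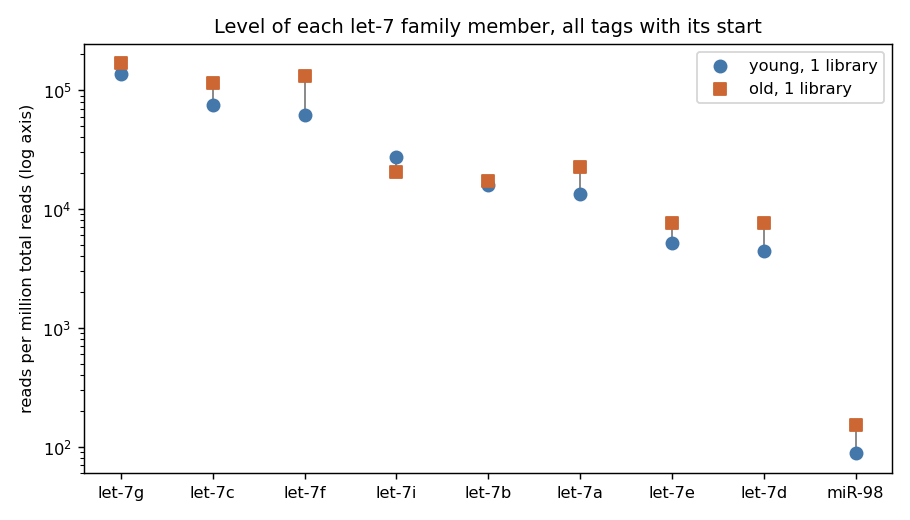
Level in RPM (log axis) of the 9 members in the young (circles) and old (squares) library, 1 library per age and no error bars, since there are no replicates. 8 members were higher in the old library and let-7i was lower, at 27226 RPM young and 20381 RPM old.

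Shares within the family do not depend on how the libraries are scaled. let-7g held 40.3% of the family's reads in the young library and 34.3% in the old library, and let-7f 18.2% and 26.7%. let-7i held 7.997% young and 4.17% old, and let-7b 4.69% and 3.54%. let-7c was at 22.05% and 23.6%, let-7a at 3.95% and 4.59%, let-7e at 1.51% and 1.55%, let-7d at 1.31% and 1.55%, and miR-98 at 0.0257% and 0.0312%. In all, 10.99 percentage points of the family's reads stood with other members in the old library than in the young one, of which let-7f took 8.48 points.

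The members were set beside 184 other known miRNAs, counted by their 18-base starts in the same way. A higher level in the old library was found for 8 of the 9 members and for 31 of the 184 others, 20.2% of all 193. A level at least 2-fold higher was found for 1 member, let-7f, and for 2 others, 1.55% of all. A level at least 2-fold lower was found for none of the members and for 54 others, 28.0% of all. The median log2 ratio was 0.62 over the members, -0.61 over the others and -0.59 over all 193. By level, let-7g ranked 1 of 193 in both libraries, let-7f 4 in the young and 2 in the old, let-7c 3 in both, and miR-98 140 and 94.

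How many members stood higher depended on the scaling, since the family alone held so many of the reads. By total reads, 8 members were higher in the old library. Scaled to the reads of the known miRNAs, which moved every ratio by -0.21, 7 members were higher and let-7b turned to -0.10. With TMM factors or DESeq2 size factors over the known miRNAs, which moved every ratio by 0.65 and 0.59, all 9 were higher and let-7i turned to 0.23 and 0.17. Scaled to the reads outside the family (a move of 0.37), 8 were higher and let-7i stood at -0.05. The counts over the 184 other miRNAs moved with the scaling too: with TMM factors 93 of them were higher in the old library, 9 at least 2-fold higher and 9 at least 2-fold lower, and their median log2 ratio was 0.04. With DESeq2 size factors 88 were higher and 10 at least 2-fold lower, at the depth of known-miRNA reads 21 and 76, and outside the family's reads 61 and 18. The order of the members was kept under each of these 5 scalings, because a factor moves all of them alike.

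**Figure D2:**
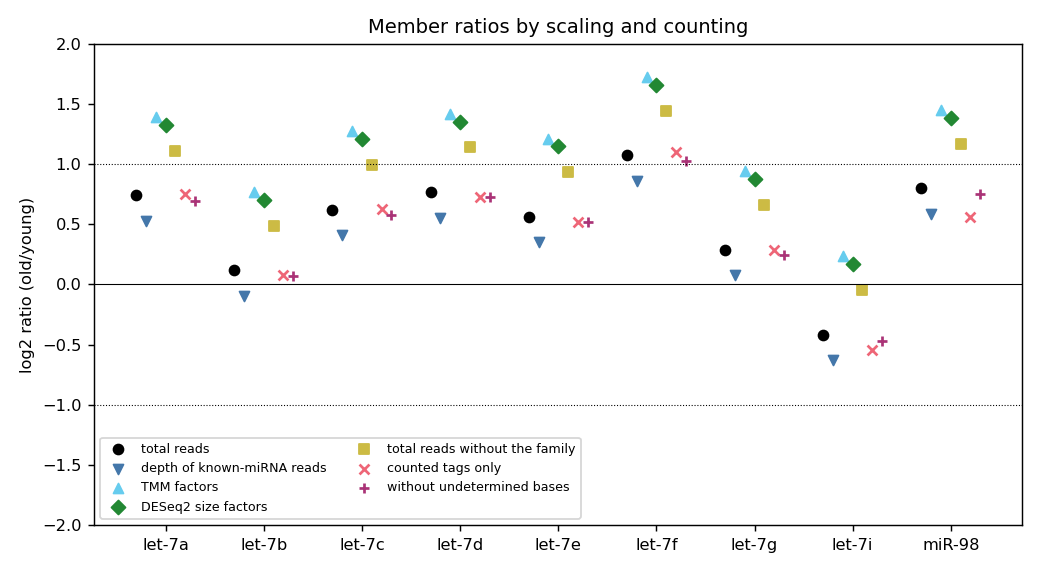
Log2 ratio (old/young) of each member under 5 depth scalings and 2 other ways of counting, 1 library per age; dotted lines mark 2-fold. let-7f is highest (1.08 by total reads) and let-7i lowest (-0.42) in each setting, while the zero line moves past let-7b and let-7i.

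The members are poor in G and C, with 31.8% to 45.5% GC in their counted tags. Across the 9 members the log2 ratio and GC had a Pearson r of -0.59 and a Spearman rho of -0.69. Across the 184 other known miRNAs, which share the same 2 libraries, they had an r of -0.60 and a rho of -0.58. Over the 84 others within the members' GC range the median log2 ratio was -0.35, against 0.62 over the members. The values move together in a single pair of libraries, and the part of GC in the ratios was not tested.

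**Figure D3:**
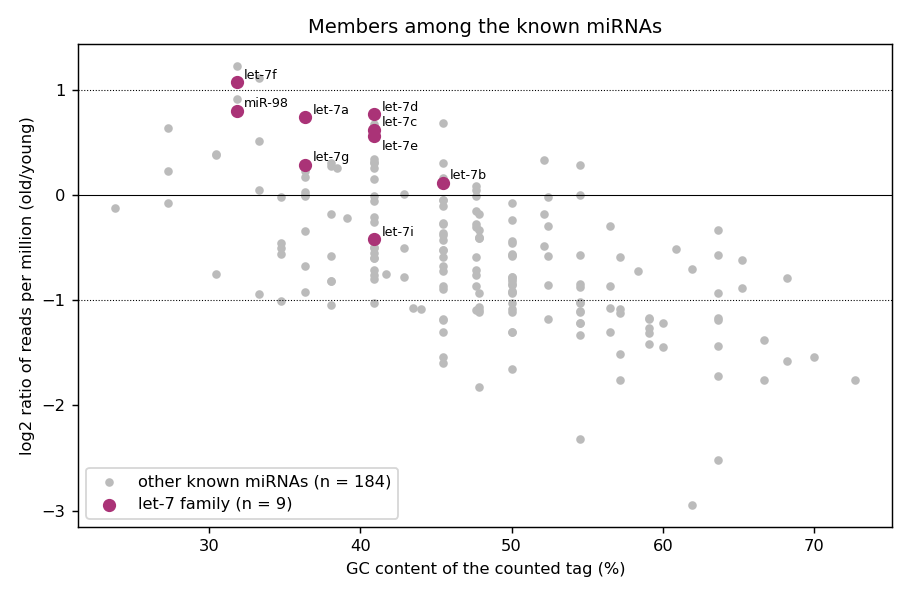
Log2 ratio (old/young) of RPM against the GC content of the counted tag, for 9 members and 184 other known miRNAs; each point is 1 miRNA and dotted lines mark 2-fold. The members lie between 31.8% and 45.5% GC and, but for let-7i, above 0.

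Some let-7 genes are transcribed beside miR-99, miR-100 and miR-125 genes, and these neighbours were lower in the old library by total reads. So were most known miRNAs: only 20.2% of all 193 were higher there, and their median log2 ratio was -0.59. miR-99a-5p had a log2 ratio of -0.85 (2414 RPM young, 1337 RPM old), miR-99b-5p of -0.33, miR-100-5p of -0.24, miR-125a-5p of -0.81 and miR-125b-5p of -0.58. Under TMM factors, which add 0.65, miR-99b-5p, miR-100-5p and miR-125b-5p would stand above 0. Among 76 other known miRNAs with at least 1000 reads in each library, those with a ratio nearest to that of the family were miR-1 (0.64), miR-26a (0.68) and miR-16 (0.68).

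The opposite strands of the hairpins, the let-7-3p strands that are mostly discarded when Argonaute is loaded, were scarce. Together they had 163 young and 173 old reads, 0.0106% and 0.00530% of the reads of both strands. let-7d-3p had the most in the young library, 61 reads against 49 in the old (log2 ratio -0.87, counting SE 0.28), while let-7d itself was higher in the old library. let-7i-3p had 40 and 18 reads (-1.71, SE 0.41). The 3p strand that let-7a-1 and let-7c-2 share had 30 and 63 reads (0.51, SE 0.32). let-7g-3p and let-7a-2-3p had 0 reads in both libraries, which allows up to 3 reads in each, although let-7g had the highest level of the 193 miRNAs compared.

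An exact count of 1 sequence per miRNA left out about 1 read in 3. The 9 counted tags held 67.2% of the family's reads in the young library (67.2 to 67.3) and 67.8% in the old library (67.7 to 67.8). By member this share ran from 79.3% young and 79.0% old for let-7g to 35.7% and 34.8% for let-7b. The share was higher in the old library for 3 of 8 members, let-7a, let-7c and let-7f, against 38.2% of all 89 known miRNAs with at least 1000 reads in each library. miR-98 was below that limit. Over the 81 other miRNAs the median share was 33.3% in the young library, and over the 8 members 62.7%.

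The next most frequent tags of a member after the counted one were usually the counted tag without its last base and with 1 base more. For let-7g, the 21-base form held 9.37% young and 8.50% old and the form with an added A 4.48% and 5.45%. For let-7f, these forms held 13.1% and 11.9%, and 6.16% and 6.84%. For let-7c, the 21-base form held 12.7% and 11.7%, and the templated 23-base form 7.89% and 9.26%. For let-7a, these forms held 14.2% and 12.3%, and 6.40% and 7.78%, and for let-7d 10.7% and 10.1%, and 8.01% and 9.50%. For let-7e, the 21-base form held 14.1% and 11.98% and a form with an added T 7.94% and 9.93%. For miR-98, the 21-base form held 13.6% and 17.4%. let-7b stood apart with 20.8% and 22.03% in its templated 23-base form, against 35.7% and 34.8% in its 22-base form. let-7i stood apart with 25.5% and 28.2% in a 23-base form that its precursor does not encode.

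As the 5′ end was fixed, the length of a tag gives its 3′ end. The mean length of the family was 22.002 nucleotides in the young and 22.023 in the old library, a difference of 0.0210 (counting SE 0.000664). All 8 members with enough reads ended further out in the old library, as did 67.4% of all 89 known miRNAs. The differences ran from 0.0193 nucleotides for let-7b to 0.130 for let-7e, with a median of 0.0496 over the members and 0.0139 over the 81 others. They are small beside the spread of lengths within a member, whose SD was 0.482 for let-7g and 1.03 for let-7b in the young library. miR-98 was 21.86 and 21.84 nucleotides long, a difference within its counting SE of 0.0382.

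In each of the 8 let-7 members the 23-base forms held a larger share in the old library and the 21-base forms a smaller one, whereas miR-98 had 16.9% of its reads at 21 bases young and 21.8% old. Shares by length were not counted over the other known miRNAs, and the mean end was further out for 67.4% of all 89. let-7i had 36.6% of its reads at 23 bases in the young and 39.9% in the old library, let-7e 19.7% and 23.3%, let-7b 33.9% and 36.4%, and let-7g 7.75% and 9.29%. At 21 bases, let-7e had 15.9% and 13.6%, let-7a 14.6% and 12.7%, and let-7g 9.59% and 8.67%. Within let-7g, the log2 ratio of RPM was 0.03 for tags of 20 bases, 0.15 for 21, 0.28 for 22, 0.55 for 23 and 0.73 for 24. Within let-7f it was 0.77 for 20 bases, 0.93 for 21, 1.09 for 22, 1.27 for 23 and 1.37 for 24. Within let-7i it was -0.39 for 20 bases, -0.46 for 21, -0.54 for 22, -0.29 for 23 and -0.18 for 24. By total reads no length of let-7i from 20 to 24 was thus higher in the old library. TMM factors, which add 0.65, would move each of them above 0. A ratio thus depended on which 3′ end was counted, but let-7f stood above let-7g and let-7g above let-7i at each length from 20 to 24. At 19 bases let-7i stood at 0.02 and let-7g at -0.13.

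**Figure D4:**
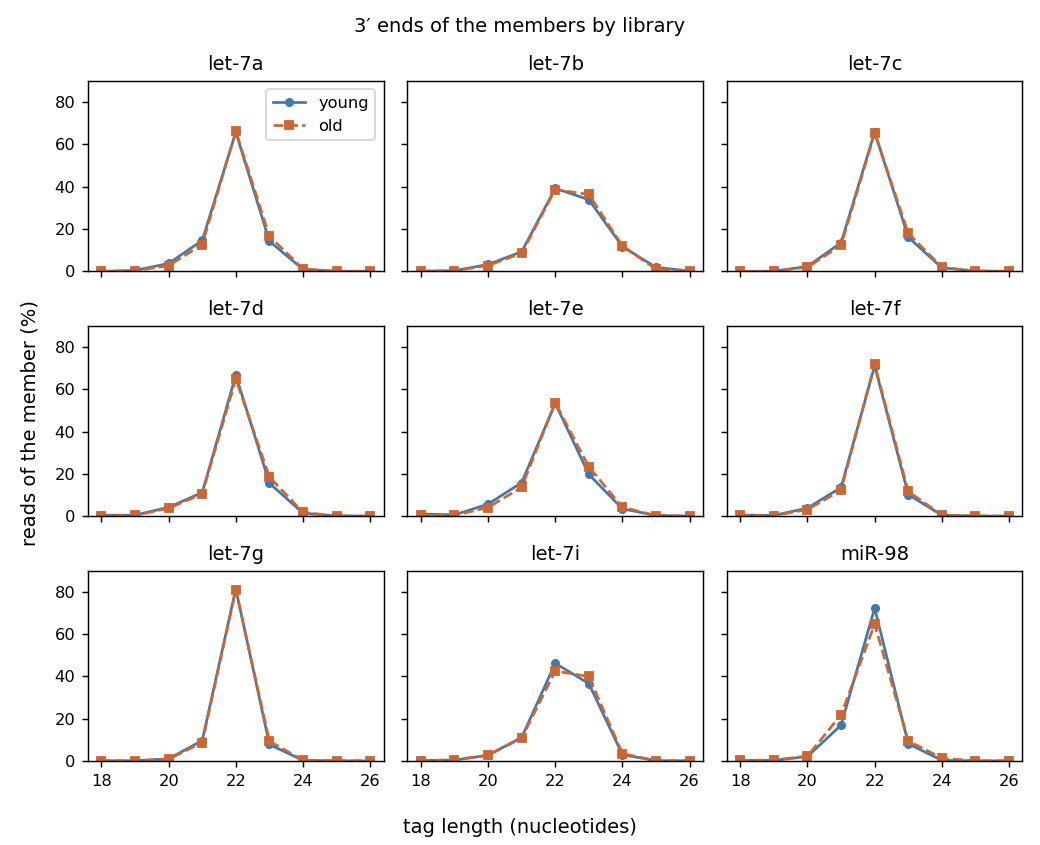
Share of each member's reads (%) by tag length in nucleotides, in the young (solid line, circles) and old (dashed line, squares) library, 1 library per age. Most members peak at 22 (let-7g 81.4% young and 80.8% old), while let-7b and let-7i have a shoulder at 23 (let-7i 36.6% and 39.9%).

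Bases at position 23 showed which ends were encoded. The full 22-base form followed by A, which no precursor encodes, held 4.48% (let-7g) to 8.77% (let-7i) of the reads of a let-7 member in the young library and 5.33% (let-7e) to 9.38% (let-7i) in the old. The 22-base form followed by T held 25.5% of let-7i reads in the young library (25.3 to 25.8) and 28.2% in the old (28.0 to 28.5), or 31425 and 38311 reads. The encoded G at that position held only 0.508% and 0.488% of let-7i reads. let-7e, whose precursor also has G there, had T in 7.94% and 9.93% of its reads and the encoded G in 4.98% and 5.20%. miR-98 had T in 6 of 396 and 29 of 1015 reads. In let-7a, b, c, d and g an added T and the encoded T are the same sequence, so that an added T at base 23 could not be seen there. The same holds for let-7f, since let-7f-2 encodes T and its tags cannot be told from those of let-7f-1.

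Over all lengths, a 3′ addition was counted where the tag left its precursor and did not return to it. The shares are not fully comparable between members, because the next precursor bases decide what counts. The 22-base form followed by AT was an addition in let-7b but a substitution in let-7c. Additions were found on 40.3% of let-7i reads young and 44.2% old, 26.01% and 25.3% for let-7b, and 19.8% and 23.6% for let-7e. They were found on 12.1% and 11.8% of let-7c, 10.0% and 11.8% of let-7d, and 9.10% and 10.2% of let-7a reads. The lowest values were those of let-7f, 8.12% and 8.76%, and let-7g, 6.04% and 7.16%. miR-98 had 11.2% (8.42 to 14.7) and 13.99% (11.99 to 16.3). Of the 8 members with enough reads, 6 had a higher share in the old library, beside 73.4% of all 79 known miRNAs with a precursor sequence, and let-7b and let-7c were lower. When a mismatch in the last 3 bases was also counted as an addition, let-7b stood at 30.7% and 30.8% and the other directions were kept.

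Most additions on the 8 let-7 members were single bases. By this rule miR-98 in the old library had more additions of 2 or more bases than single ones. The former were 10 reads of A alone and 71 mixed reads, the latter 29 of A, 30 of T and 2 of G. The mixed reads were led by GGTTT (23), GGTTA (10) and GGTA (8) after base 18, which begin as let-7b and let-7c do there. let-7e also had GGTTT (148 reads young, 433 old) and GGTTA (88 and 275) there. Whether these bases were added to the member was not tested. A single A was found on 7.77% of let-7a reads young and 8.64% old, 10.2% and 10.2% for let-7b, 9.84% and 9.45% for let-7c, 7.66% and 8.99% for let-7d, 6.03% and 6.59% for let-7e, 7.08% and 7.67% for let-7f, 5.11% and 6.06% for let-7g, and 9.62% and 10.1% for let-7i. This share was higher in the old library for 6 of the 8 members, beside 54.4% of the 79 known miRNAs. A single T was found on 25.9% and 28.5% of let-7i, 9.13% and 11.01% of let-7e and 4.51% and 4.68% of let-7b reads, and on at most 0.114% of let-7a, c, d, f or g reads in either library, where a T added to the 22-base form counts as encoded. In let-7b this T followed the encoded T at base 23 in 3136 of 3245 young reads. The single T share was higher in the old library for 5 of 8 members, beside 70.9% of the 79 miRNAs. let-7i ranked 4 of 79 for a single T in both libraries, but a miRNA whose precursor encodes T next cannot show an added T there. The 3′ adapter that was trimmed begins with T, and the part of trimming in a T at the end of a tag was not tested.

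**Figure D5:**
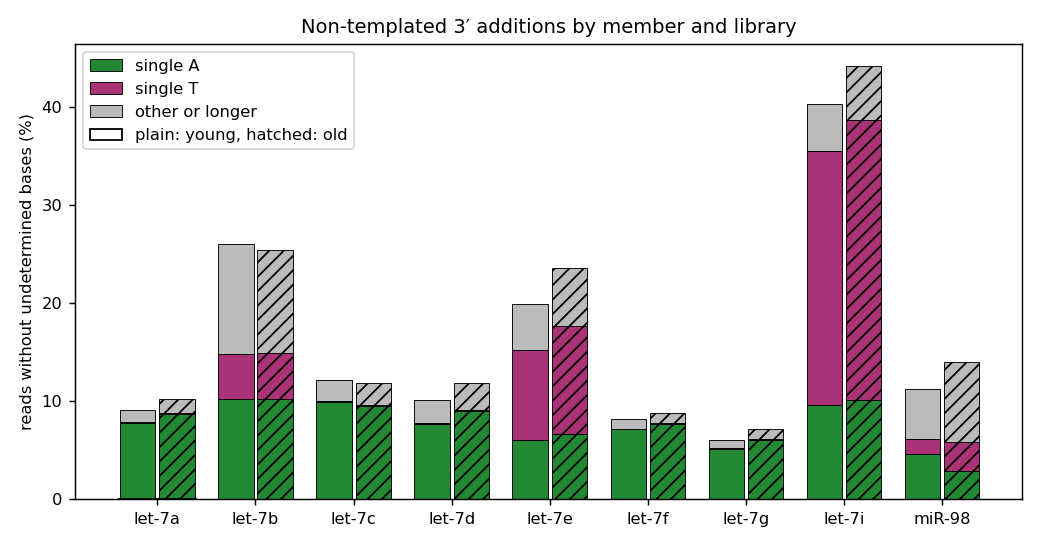
Share of each member's reads (%, reads with an undetermined base left out) that end in a single non-templated A, a single non-templated T, or any other addition, in the young (plain) and old (hatched) library, 1 library per age. let-7i reaches 40.3% and 44.2%, mostly by T, whereas let-7g stays at 6.04% and 7.16%, mostly by A. In let-7a, b, c, d, f and g a T added to the 22-base form counts as encoded, so the bars do not show it.

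Over the pooled family the share with an addition was lower in the old library, 11.8% against 11.3%, a difference of -0.486 points, although 7 of the 9 members were higher. The 2 directions follow from the mix of members. At the young shares of the members, the old library's own member values gave 12.7%, 0.901 points above the young library. At the old shares, the young library's member values gave 10.6%, a difference of -1.24 points from it. let-7i, with the most additions that this rule can see, had the larger share of the family in the young library. For length the 2 directions were the same. Over the reads assigned to a member, the mean end differed by 0.0206 nucleotides pooled and by 0.0424 at the young shares of the members. At the old shares, the young library's member values gave a difference of -0.0240.

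Some tags began as one member and ended as another. Among miR-98 tags long enough to show bases 19 to 22, the end of let-7b and let-7c (GGTT) was found on 55 of the young reads, 17.2% (13.5 to 21.8), and on 152 of the old reads, 19.9% (17.2 to 22.8). The end of let-7a, d, e, f and g (AGTT) was found on 3.13% and 5.75% of miR-98 reads, and its own end on 73.4% and 68.5%. let-7e reads carried GGTT in 7.51% young and 9.62% old. The 22-base miR-98 tag with GGTT (46 reads young, 116 old) is equally let-7c with G11A. That of let-7e (1077 and 3110 reads) is equally let-7c with T9G. The let-7c tag itself had 208581 and 475252 reads. miR-98 with AGTT is in the same way let-7a with G11A. Which member these tags came from was not tested. let-7b, d, f, g and i each carried the end of any 1 other group in no more than 1.46% of reads, and let-7a and let-7c cannot be judged because base 19 defines them. Without such tags the log2 ratio of miR-98 was 0.75 in place of 0.80, from 331 and 819 reads, and that of let-7e was 0.53 in place of 0.56.

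Members 1 base apart can be mistaken for each other by a misread base, most easily a scarce member beside an abundant one. At the base that tells the abundant member from the scarce one, the mean reads of the 2 remaining bases gave a measure of this. For let-7c read as let-7a (G19A) it was 1.61% of the let-7a tag young and 1.64% old. For let-7c read as let-7b (A17G) it was 1.31% and 1.80%, and for let-7a read as let-7e (T9G) 0.408% and 0.723%. For let-7f read as let-7a (A12G) it was 9.11% and 17.9%, but this was set by 1 tag, which also lies 1 base from let-7g and so gives no clean measure of misreading. It is shown with its neighbours, positions 12 and 18 in capitals.
between let-7f and let-7g: tgaggtagtagTttgtaTagtt
let-7f: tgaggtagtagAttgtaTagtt
let-7g: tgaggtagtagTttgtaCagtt
This tag is let-7f with A12T and equally let-7g with C18T. It had 6143 reads in the young and 33940 reads in the old library. These were 3.18% and 5.58% of the let-7f tag, or 1.25% and 3.85% of the let-7g tag. The same C18T on let-7i stood at 0.973% and 2.46% of its tag, and G12T on let-7c at 0.370% and 0.534%. In 12 other known miRNAs with A at position 12, A12T had a median of 0.122% and 0.0363%, and was highest at 0.340% in the young library. In 8 others with C at position 18, C18T had a median of 0.263% and 0.409%, reached 1.48% and 1.72%, and was higher in the old library in 7 of 8. The tag matched neither a member nor a precursor, its start was no counted start, and it was in none of the counts above.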

How the data were processed

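The data are 2 small RNA libraries from whole mouse brain, young and old, each combined from the cDNA of 2 mice. Per the study's methods the authors aligned the reads to mm9 with SOAP and removed the 3′ adapter. The deposited files hold raw read counts per distinct tag, without normalization. Tags were 17 to 26 bases long, and the version of SOAP and the mismatches allowed to the genome are not given in the sources used here. Unaligned reads were not analysed here, so that long additions may be missing.

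The members and the lists of other miRNAs were chosen with earlier results of these data known. A known miRNA was taken from the study's list where 1 tag held its pair of counts, which gave 197 miRNAs with distinct tags. Of these, 193 were compared, and 4 were left out because another miRNA shares their start. let-7a and let-7c also share one and were kept, told apart by base 19. miR-486, miR-133a and miR-145 had no entry in the miRNA reference used here and so no value. For each member the counted tag and the 3 tags with the most reads were described, and outside the family the 3 miRNAs nearest in ratio with at least 1000 reads in each library, the neighbours of let-7 genes, and the 3p strands.

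Levels were divided by total reads, 4523267 young and 6658732 old. Tags without undetermined bases were compared with the RefSeq hairpins of a member from the 5′ end: a tag was templated, or had 1 mismatch that was not its last base (a substitution), or ended in an addition after its longest match. By this rule a tag such as an A followed by an encoded base is a substitution. Hairpins were placed on NCBIM37 by perfect match. Shares have Wilson 95% intervals and log2 ratios counting SEs. No quasi-likelihood fit of edgeR was made because a single library at each age leaves no degrees of freedom. The classification was run on simulated tags of the 9 members, where the recovered addition share differed by 0 points. Each simulated addition was 1 base that the precursor does not encode there, so the rule had to find it. Longer additions, misread bases and an added base equal to the encoded one were not simulated. On 9204 simulated starts, 200 of them changed, 95.7% of the intervals held the simulated ratio. Their counts were drawn with counting error alone, which the intervals assume, so a share near 95% was set in advance. Spread between mice and from amplification was not simulated. Scripts ran in Python 3.11.15 with numpy 2.4.6, scipy 1.17.1 and matplotlib 3.10.9, and in R 4.3.3 with edgeR 4.0.16 (TMM factors) and DESeq2 1.42.0 (size factors).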

Additional observations from a re-analysis of the deposited data

Results flagged for a closer look

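Reads outside the counts of the family carried its signal. In the young library 63302 reads, and in the old library 27111 reads, matched the start of a member except for 1 or 2 undetermined bases among the first 18, above the 3 reads that a count of 0 allows. They amounted to 4.10 reads for every 100 family reads young and 0.831 old, and base 2, within the seed, was undetermined in 94.7% and 59.3% of them. Over all tags of the libraries base 2 was undetermined in 85.3% of young and 56.9% of old reads with an undetermined base at any position. The family's percentages count only the first 18 bases, so the 2 sets are not on the same base. By reads, base 2 was undetermined in 176226 young and 40616 old reads of the libraries, against 59934 and 16068 of those that match a member. Such reads were thus not particular to the family. 1240 young and 77 old reads of this kind matched more than 1 member. No control samples exist, and the part of the sequencing run in these reads was not tested.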

How the results depend on the processing

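With 1 library per age no replicate could be left out. No paired analysis was possible because the groups share only 1 replicate number and no test was fitted. Among the alternatives to the 6 main values, 1 reversed, 18 moved beyond counting error or 1.5 times and 13 did not. The family's log2 ratio, 0.52 by total reads, was 1.11 with DESeq2 size factors, 1.17 with TMM factors, 0.31 at the depth of the known-miRNA reads, 0.89 without the family in the depth, 0.54 for counted tags, 0.48 without tags that hold an undetermined base, and 0.48 with undetermined starts included. Members at least 2-fold apart, 1 in the main count, were 6 with DESeq2, 6 with TMM, 0 at the depth of known-miRNA reads and 4 without the family. All of these were higher in the old library. Of all 193 known miRNAs, 1.55% were at least 2-fold higher in the main count. In the same order, the alternatives gave 6.74%, 7.77%, 0.518% and 5.18% at least 2-fold higher, and 5.18%, 4.66%, 39.4% and 9.33% at least 2-fold lower. The counted tags' share differed by 0.561 points, by 0.700 with starts of 20 bases and by 0.300 without undetermined bases. The mean 3′ end differed by 0.0210 nucleotides, by 0.0183 with starts of 20 bases, by 0.0273 over templated tags and by 0.0490 as an unweighted mean over the 9 members. The addition share differed by -0.486 points, by -0.401 for single bases, and reversed to 1.56 as an unweighted mean over members, where the mix of members has no part. The points that stood with other members were 10.99, and 10.89 with misread bases subtracted. That subtraction takes from let-7a the tag between let-7f and let-7g, which is no clean measure of misreading, and the difference in let-7a's share went from 0.640 to 0.344 points. Undetermined starts, mismatches in the last 3 bases and ends of other members were tried after the data had been seen. Depth limits miR-98 and the 3p strands most.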
